A study of Mus musculus with 6 samples.

Results

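The growth hormone, STAT5 and SOCS signalling genes described here are Cish, Socs1, Socs2, Socs3, Ghr, Jak2, Stat3, Stat5a, Stat5b and Bcl6, which are 10 of the 16759 genes in the deposited table. They were taken by gene symbol, and the set was selected on the read counts of these same libraries, in which Cish was strongly reduced in the exercised mice. The exercise (EX) against control (Con) contrast of the 10 genes is therefore a description. No p-value is printed for them, and whether a member passed the threshold is stated only to place it among all genes. Where a member passed or lost the threshold in another fit, that shows how steady its place was and is no test of its change. RNA was sequenced from hind leg muscle of 3 Con and 3 EX male C57BL/6J mice, 8 weeks old when training began, with 1 library per mouse and no genetic modification named. EX mice ran on a treadmill for 60 min a day, 5 days a week, for 6 weeks, 22 km per mouse in all, with tissue collected 24 h after the final run. Con mice did no treadmill training. Training took place in the evening. Which hind leg muscle was taken, and the hour at which Con mice were killed, are not given in the sources used here.

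Growth hormone binds its receptor, GHR, on the cell surface and activates the kinase JAK2, which phosphorylates the transcription factors STAT5A and STAT5B. Phosphorylated STAT5 enters the nucleus and induces Cish and Socs2, whose proteins bind the activated receptor complex and damp the signal, so their transcripts are commonly read as gauges of STAT5 activity. STAT3 carries signals of the interleukin-6 family and induces Socs3, SOCS1 restrains mainly interferon and interleukin signals, and BCL6 is a transcriptional repressor whose DNA motif resembles that of STAT5. In muscle, growth hormone is known for raising local Igf1 and for its part in postnatal growth.

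The motif that activated STAT5 is known to bind, TTCNNNGAA, reads the same on both strands and was searched for in RefSeq promoter windows of GRCm38.p6, from 250 bases before to 50 bases after each gene start. A window was matched for 9 of the 10 genes, all but Socs2. The motif lay in a window of 3 of these 9 genes, beside 7.96% of the 8696 tested genes with a window. Over single windows of this length its share was 8.3% of 32851. The relevant stretches of the 3 genes are shown because 1 of them, Cish, was the gene that stood apart in these libraries, while Socs3 and Bcl6 serve for comparison. Capitals mark the motif and each stretch is written 5′ to 3′ on the strand of its gene.
Cish, chr9:107296559-107296683, plus strand: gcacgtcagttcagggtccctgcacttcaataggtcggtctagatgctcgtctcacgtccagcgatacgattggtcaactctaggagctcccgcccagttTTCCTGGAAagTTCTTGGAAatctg
Socs3, chr11:117969441-117969566, minus strand: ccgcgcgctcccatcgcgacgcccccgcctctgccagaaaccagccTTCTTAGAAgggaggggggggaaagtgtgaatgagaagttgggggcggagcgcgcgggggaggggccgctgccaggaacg
Bcl6, chr16:23981358-23981483, minus strand: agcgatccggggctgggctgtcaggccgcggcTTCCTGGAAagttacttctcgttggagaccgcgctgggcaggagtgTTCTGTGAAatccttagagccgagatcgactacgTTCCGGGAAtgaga
In the Cish window 2 matches, TTCCTGGAA and TTCTTGGAA, began at bases 1 and 12 counted from the gene start. The Socs3 match, TTCTTAGAA, began at base -154. The Bcl6 matches of this window began at bases -168, -122 and -88, and a second annotated start of Bcl6 had 1 match, TTCTCAGAA, at base -118. The windows of Socs1, Ghr, Jak2, Stat3, Stat5a and Stat5b held none. These are matches of letters only, since binding of STAT5 or BCL6 was not measured.

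All 6 libraries were of similar depth, with 13845362 to 16240431 counts on genes, and 3 counts, the limit that a count of 0 allows, came to between 0.188 and 0.215 CPM. CPM, the unit of level used for a gene across libraries, are counts per library size after TMM scaling. The 10 muscle fibre markers summed to between 160860 and 168370 CPM in Con and between 172030 and 180820 CPM in EX, so transcripts of muscle were plentiful in every library. Replicates of a group differed beyond sampling noise, with a chi-square of 1.78 to 4.18 per degree of freedom, so none was counted as a duplicate.

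Of the 10 genes, all passed the filter of a mean of at least 1 FPKM that left 10883 genes for testing. In the edgeR quasi-likelihood fit over these genes, Cish, Socs2, Socs3 and Stat5b lay past the threshold, an adjusted p under 0.05 (Benjamini-Hochberg), each with the lower level in EX, and the other 6 did not. Among all genes tested 17.9% passed, with 8.8% lower and 9.11% higher in EX. The EX and Con values of 5 genes did not overlap, namely those of these 4 and Stat5a, and in each of them all EX mice lay below all Con mice. Of the genes tested, 33.7% had no overlap between the groups, and 16.9% had all EX values below all Con values. The members were chosen from this contrast, so nothing is read from these counts. The samples are whole tissue, in which fewer cells of a type and less RNA per cell cannot be told apart.

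**Figure D1:**
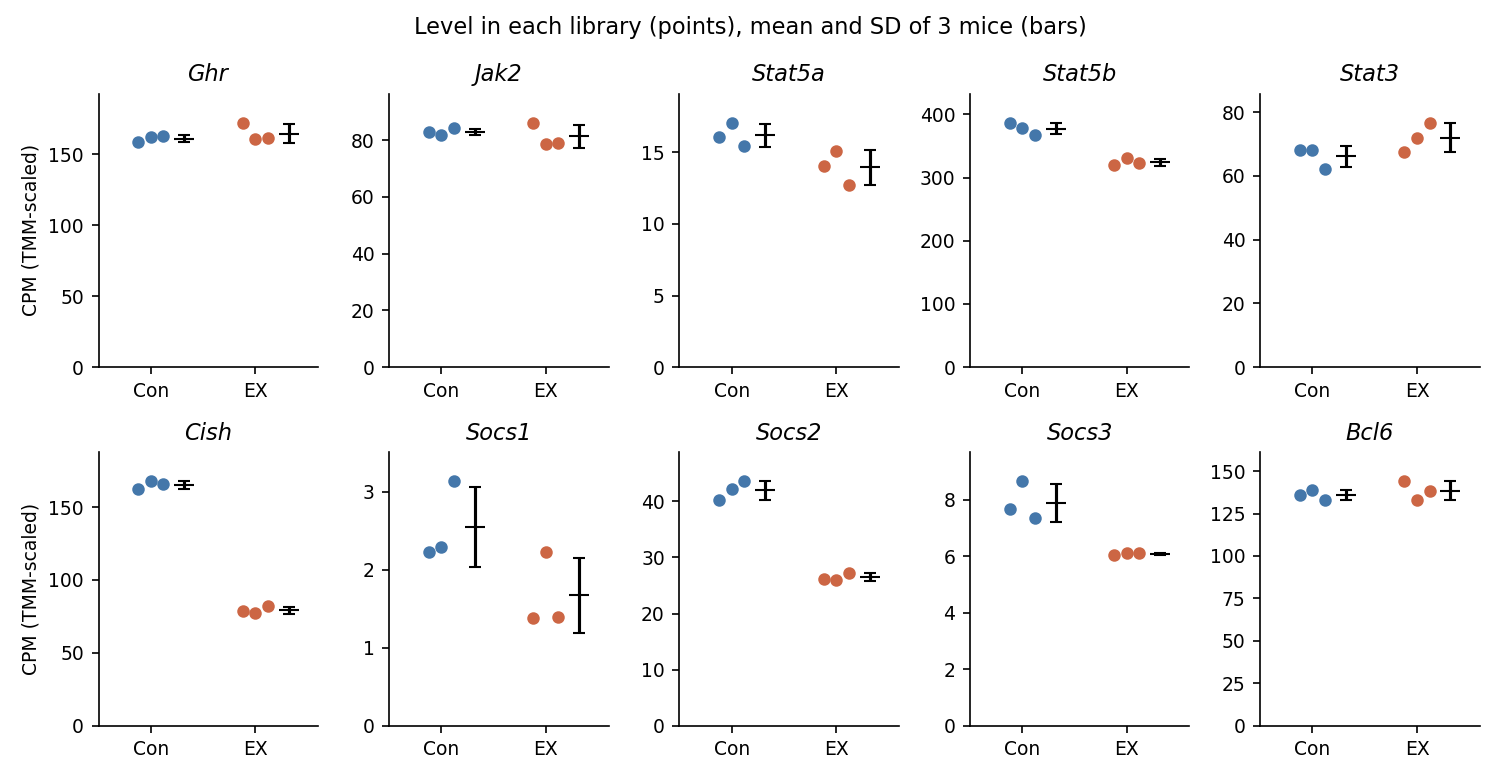
TMM-scaled CPM (vertical axes, starting at 0) of the 10 genes in each of the 3 Con (blue) and 3 EX (red) libraries, with black marks for the mean and SD of each group. Cish lay between 162 and 168 CPM in Con and between 77.0 and 81.9 CPM in EX, while Ghr, Jak2 and Bcl6 overlapped between the groups.

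Levels of different genes were compared per length, in the authors' TPM (transcript abundance corrected for length and depth). The length behind these values, counts over TPM relative to the median gene of the library, was not fixed. Its highest value over the 6 libraries was 1.09 times its lowest for Socs2 and at most 1.05 times for the other members, so TPM levels and ratios carry this uncertainty. In Con muscle Stat5b was the most abundant of the 10 at 116 ± 2.83 TPM (SD, n = 3), followed by Cish at 90.2 ± 1.83, Ghr at 69.3 ± 1.56 and Bcl6 at 60.5 ± 1.23 TPM. Jak2 at 29.3 ± 0.475 and Socs2 at 27.0 ± 2.40 TPM overlapped in Con and so had no order. Stat3 lay below them at 23.3 ± 1.06 TPM and Stat5a at 6.89 ± 0.258 TPM. Socs3 and Socs1 were the lowest at 4.82 ± 0.386 and 4.15 ± 0.871 TPM and overlapped. In EX muscle no neighbours in the order overlapped, and Cish stood in position 4 instead of 2, below Ghr and Bcl6. Socs2, above Stat3 in every Con mouse, was below it in every EX mouse.

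**Figure D2:**
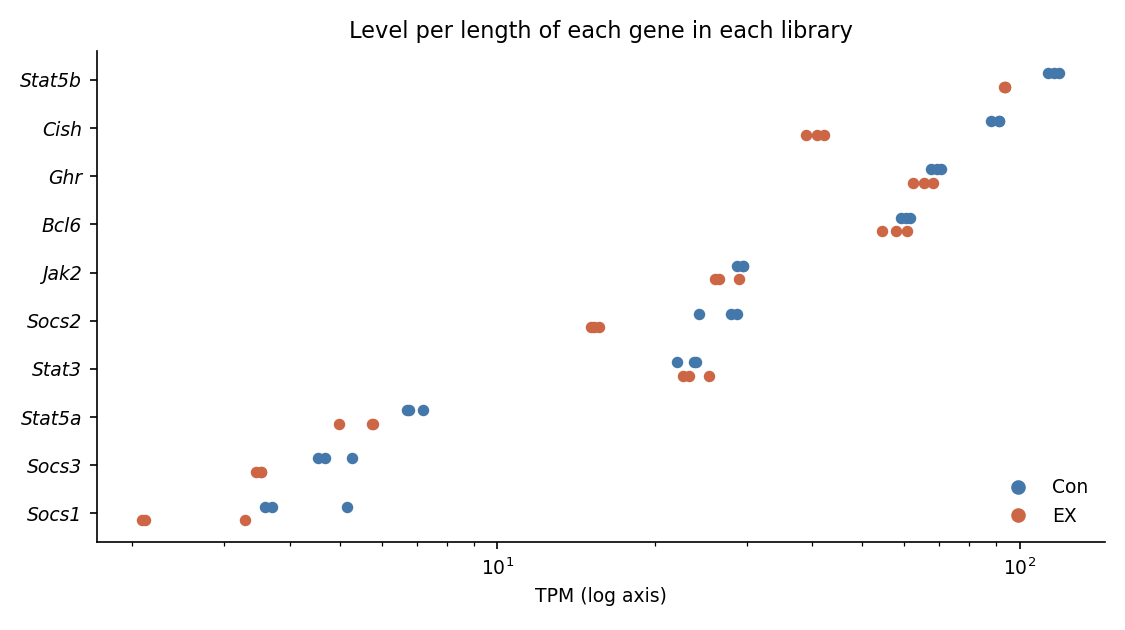
TPM on a log axis (horizontal) for each of the 10 genes (rows, ordered by the Con mean) in the 3 Con (blue) and 3 EX (red) libraries. Cish moved from a mean of 90.2 to 40.7 TPM and passed below Ghr and Bcl6.

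Ghr, the growth hormone receptor (Entrez gene 14600), was measured at 159, 162 and 163 CPM in Con replicates 1 to 3 and at 172, 161 and 161 CPM in EX replicates 1 to 3. The groups overlapped, and the highest value was that of EX replicate 1. The log2 fold change was 0.03 with a standard error (SE) of 0.04 and a 95% interval of -0.05 to 0.11, and without EX replicate 1 it was -0.00. Jak2, the kinase bound to the receptor (16452), was measured at 82.7, 81.8 and 84.1 CPM in Con and at 86.1, 78.6 and 79.1 CPM in EX. Here too EX replicate 1 was the highest and the groups overlapped. The log2 fold change of Jak2 was -0.03 ± 0.05 (SE), with an interval of -0.12 to 0.07. The ratio of Jak2 to Ghr in TPM was 0.423 ± 0.0154 in Con and 0.417 ± 0.0106 in EX (SD, n = 3).

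Stat5b, the main STAT5 gene of this muscle by level (20851), was measured at 387, 378 and 368 CPM in Con and at 319, 330.5 and 323 CPM in EX. Every EX mouse lay below every Con mouse, and the fitted level fell by 14.1%. On the log2 scale the change was -0.22 ± 0.04 (SE), with an interval of -0.29 to -0.15. Stat5a, its paralog (20850), was measured at 16.1, 17.0 and 15.4 CPM in Con and at 14.003, 15.1 and 12.7 CPM in EX. The groups did not overlap, but the difference did not pass the threshold, at -0.22 ± 0.08 (SE) with an interval of -0.39 to -0.04.

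Stat5a and Stat5b are near-identical genes that lie side by side on chromosome 11, and their deposited counts were not whole in any library. Their sums were whole in all 6, within a tolerance of 0.001 of a read, at 5612, 6215 and 6108 counts in Con and 5282, 5428 and 5280 counts in EX. Reads that fit both genes had thus been divided between them, and the value of each alone is uncertain. Stat5a was given between 3.78% and 4.37% of the sum in every library. The sum was 394 ± 9.86 CPM in Con and 338 ± 6.66 CPM in EX, a log2 fold change of -0.22 ± 0.04 (SE) that does not depend on the division. In TPM the ratio of Stat5b to Stat5a was 16.9 ± 0.685 in Con and 17.1 ± 1.45 in EX and overlapped between the groups.

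Stat3, the interleukin-6 arm of the family (20848), was measured at 68.0, 68.1 and 62.3 CPM in Con and at 67.6, 71.8 and 76.6 CPM in EX. EX replicate 1 lay among the Con mice, so the groups overlapped. The log2 fold change was 0.12 ± 0.05 (SE), with an interval of 0.02 to 0.23, and it did not pass the threshold. Without EX replicate 1 it was 0.17 and did pass, without EX replicate 3 it was 0.08, without Con replicate 3 it was 0.08, and in limma on log2(TPM + 0.1) it was 0.03. The ratio of Stat5b to Stat3 in TPM was 4.99 ± 0.137 in Con and 3.94 ± 0.238 in EX, and its lowest Con value of 4.86 was above its highest EX value of 4.13.

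Cish, which encodes the founding member of the SOCS family (12700), was measured at 162, 168 and 166 CPM in Con and at 78.5, 77.0 and 81.9 CPM in EX. The 3 mice of each group lay close together and the groups were far apart. The mean was 165 ± 2.67 CPM in Con and 79.1 ± 2.46 CPM in EX (SD, n = 3), and the fitted level fell by 52.1%, a log2 fold change of -1.06 ± 0.04 (SE) with an interval of -1.15 to -0.98. These values rest on 2264 to 2642 reads in a Con library and 1210 to 1289 in an EX library, all whole. Among the 958 genes lower in EX, Cish had the 10th largest decrease. Over the 17 fits made, its log2 fold change was between -1.15 and -1.04.

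Socs2, the other growth hormone feedback gene (216233), was measured at 40.2, 42.2 and 43.6 CPM in Con and at 26.2, 26.04 and 27.3 CPM in EX. All EX mice were below all Con mice, with means of 42.0 ± 1.68 and 26.5 ± 0.680 CPM and a fitted level that fell by 36.9%. The log2 fold change was -0.66 ± 0.06 (SE), with an interval of -0.78 to -0.54. The decrease was the 64th largest of the 958, and over the 17 fits the log2 fold change was between -0.81 and -0.64. In TPM the ratio of Cish to Socs2 was 3.35 ± 0.243 in Con and 2.65 ± 0.0604 in EX, with a lowest Con value of 3.17 and a highest EX value of 2.70.

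Socs3, induced by STAT3 (12702), was measured at 7.68, 8.65 and 7.34 CPM in Con and at 6.06, 6.11 and 6.10 CPM in EX. The EX mice were nearly equal, with 96 reads in each, and the Con libraries held 107 to 136 reads. The fitted level fell by 22.8%, a log2 fold change of -0.37 ± 0.12 (SE) with an interval of -0.62 to -0.13. The call rested on few reads and was lost without Con replicate 2, where the log2 fold change was -0.30, and also without EX replicate 1, 2 or 3, where it was -0.37, -0.38 and -0.38. It was lost in DESeq2 too, at -0.37.

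Socs1, the interferon-responsive inhibitor (12703), was measured at 2.22, 2.29 and 3.14 CPM in Con and 1.39, 2.23 and 1.40 CPM in EX. The libraries held only 22 to 50 reads of it, and EX replicate 2 overlapped the Con mice. The log2 fold change was -0.62 ± 0.22 (SE), with an interval of -1.08 to -0.15, and it did not pass the threshold. Without EX replicate 2 it was -0.88 and without Con replicate 1 it was -0.70, and both of these passed. The other 4 libraries left out in turn gave values that did not pass, the weakest being -0.44 without Con replicate 3. The interval also holds the log2 fold changes of Cish, Socs2 and Socs3, so at this depth Socs1 could not be placed beside them.

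Bcl6, the repressor (12053), was measured at 136, 139 and 133 CPM in Con and at 144, 133 and 138 CPM in EX. The groups overlapped, with EX replicate 1 the highest. The log2 fold change was 0.03 ± 0.04 (SE), with an interval of -0.06 to 0.11, and it was -0.00 without EX replicate 1. Bcl6 had matches of the motif and Stat5b, lower in EX, had none, and nothing on the changes is read from the matches.

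**Figure D3:**
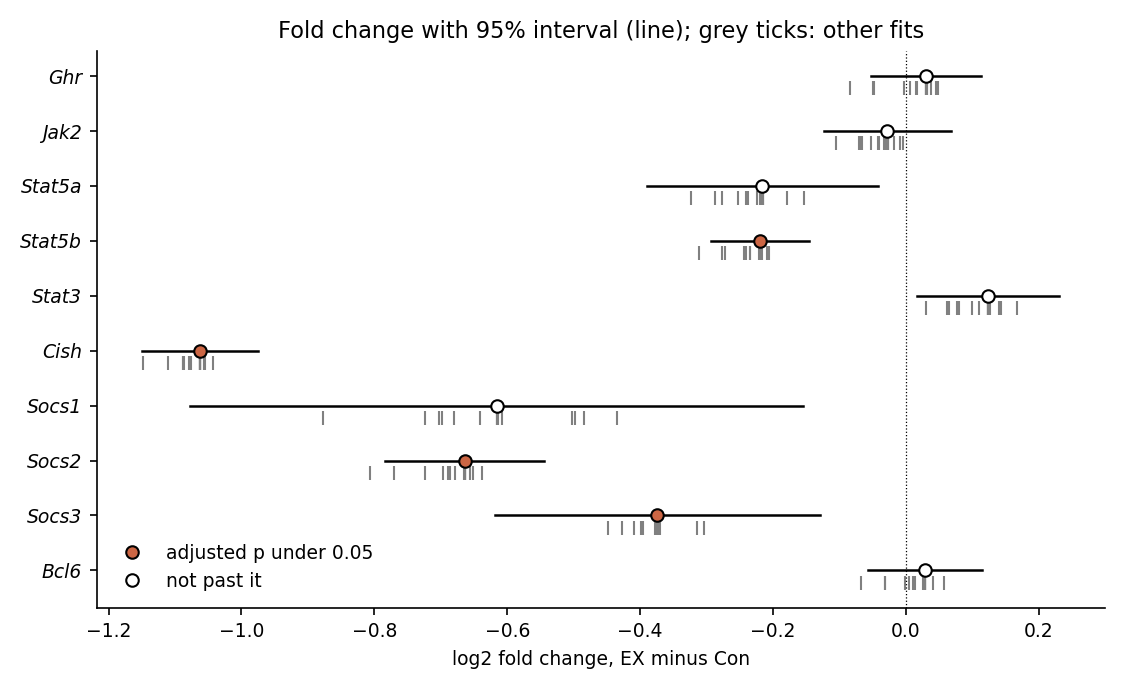
Log2 fold change of EX against Con (horizontal axis) for each of the 10 genes, with the 95% interval as a line and the 16 other processing settings, where the gene was tested, as grey ticks. Filled points passed an adjusted p of 0.05. The interval of Cish, for which the set was selected, was -1.15 to -0.98, and that of Socs2 was -0.78 to -0.54.

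The level of Cish beside the parts above it is given next as a restatement of its decrease, for which the set was selected. Cish to Ghr in TPM was between 1.29 and 1.31 in Con and between 0.600 and 0.644 in EX. Cish to Stat5b was 0.777 ± 0.0325 in Con and 0.435 ± 0.0179 in EX. In Con muscle Cish thus exceeded its receptor gene in level per length, and in EX muscle it did not.

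The genes whose pattern was closest to that of Cish were found by the root mean square (RMS) difference of log2(CPM + 0.5), centred on each gene's mean, over the 6 libraries. With 6 points in 2 groups this is a description. The closest were Pzp (RMS 0.0653), Aldh1l1 (0.0727), Lrrn1 (0.0780), Tnfrsf19 (0.0813) and Fga (0.109). Their fitted log2 fold changes were -1.25, -0.99, -0.98, -1.03 and -0.98 in the same order, beside -1.06 for Cish. Pzp had 44 to 46 reads in an EX library and Fga 47 to 48. The added 0.5 CPM draws such low values together, so the order by RMS depends on it. Pzp encodes a plasma protease inhibitor and Fga a fibrinogen chain, both known as products of liver, and Aldh1l1 encodes an enzyme of folate metabolism. Lrrn1 and Tnfrsf19 encode membrane proteins. Pzp was 6.78 ± 0.365 CPM in Con and 2.85 ± 0.050 CPM in EX, Aldh1l1 was 26.5 ± 2.09 and 13.4 ± 0.714 CPM, and Fga was 5.95 ± 0.409 and 3.02 ± 0.0508 CPM. Socs2, the member nearest to Cish, had an RMS of 0.204, since its change was smaller.

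**Figure D4:**
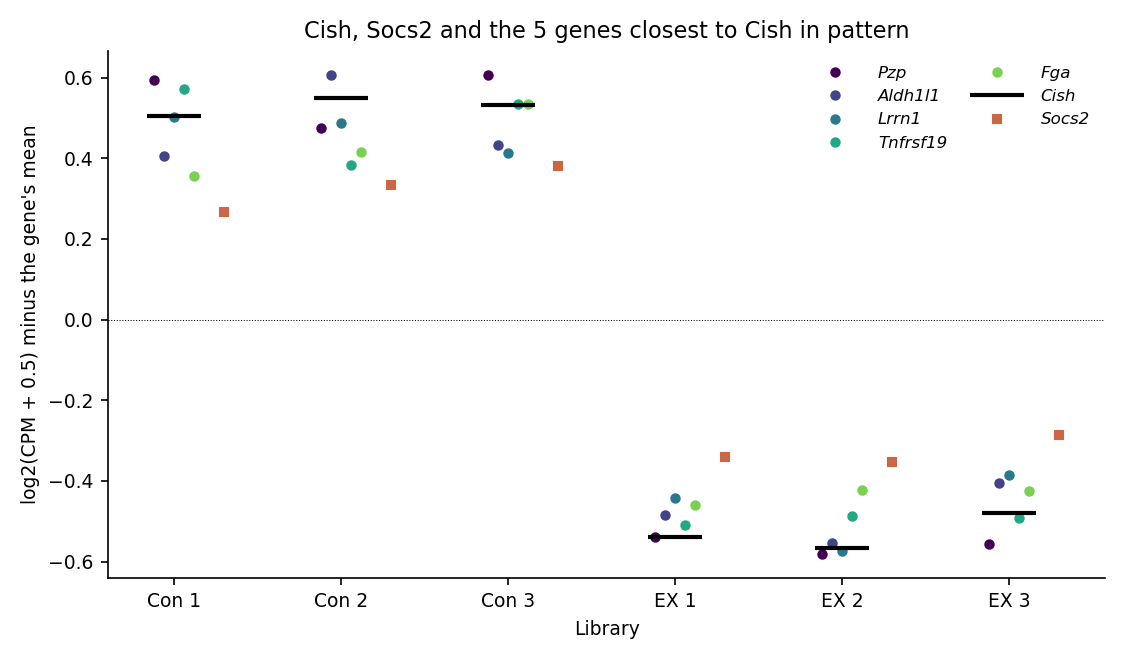
Log2(CPM + 0.5) minus each gene's own mean (vertical axis) in the 6 libraries (horizontal axis) for Cish (bars), the 5 genes closest to it in pattern (circles) and Socs2 (squares). All of them were above their mean in Con and below it in EX, and Socs2 was nearer to its mean than Cish in every library.

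The other genes of the pathway were taken from 7 lists of 125 genes in all, of which 91 passed the filter. By the same edgeR quasi-likelihood test, adjusted by Benjamini-Hochberg over all genes, 14 of them rose, 17 fell and 60 did not pass, so 34.1% were called beside 17.9% of all genes tested. Their median log2 fold change was -0.04, beside -0.00 over all genes tested, and nothing particular to the lists is read from these shares. The count was 16 in DESeq2, 18 without EX replicate 1 and 20 without EX replicate 2. In edgeR scaled by median ratios the split was again 14 higher and 17 lower, and with totals without the 20 most abundant genes it was 10 and 17. In limma, which also changes the test and the unit, it was 3 and 13 on log2(FPKM + 0.1) and 2 and 22 on log2(TPM + 0.1). Of the 31 genes, 14 were called in each of the 6 fits that left out 1 library.

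Among the JAK kinases, other STAT factors and adaptors, 1 of 10 rose and 3 fell (median -0.04). Jak3, a kinase of lymphocyte cytokine receptors, was 15.7 ± 0.856 CPM in Con and 12.8 ± 1.89 CPM in EX (log2 fold change -0.30, adjusted p = 0.0277), with an overlap between the groups. Stat2, an interferon factor, was 17.1 ± 0.523 and 14.4 ± 0.885 CPM (-0.25, adjusted p = 0.0289). Sh2b3, an adaptor that restrains JAK2, was 43.7 ± 0.197 and 39.1 ± 1.13 CPM (-0.16, adjusted p = 0.0352), and Stat6, the interleukin-4 factor, was 37.0 ± 0.919 and 41.3 ± 0.0126 CPM (0.16, adjusted p = 0.0403). All 4 lay near the threshold and were lost in DESeq2. Sh2b3 and Stat6 were also lost with no filter and with the replicate block, and Jak3 and Stat6 in limma on FPKM. Sh2b3 and Stat6 were lost when any single library was left out, at -0.17 to -0.13 and at 0.14 to 0.17. Jak3 was lost without Con replicate 2 or 3 or EX replicate 1 or 2, at -0.42 to -0.23 over all libraries left out, and Stat2 without Con replicate 2 or 3 or EX replicate 2, at -0.28 to -0.20.

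Among 15 other inhibitors of cytokine signalling, 3 rose and 12 did not pass (median 0.04). Socs6, a SOCS family gene linked to insulin and receptor kinase signals, was 32.4, 33.0 and 32.7 CPM in Con and 38.3, 37.5 and 38.0 CPM in EX, so that the groups did not overlap (0.21 ± 0.06 SE, adjusted p = 0.0067). It thus rose while Cish, Socs2 and Socs3 fell. Its call was kept when any 1 library was left out and lost in limma on FPKM and TPM. Rnf7, a subunit of the ubiquitin ligase that SOCS proteins recruit, was 77.9 ± 2.52 and 87.4 ± 2.46 CPM (0.17, adjusted p = 0.0103), and it did not pass without EX replicate 1, over a range of 0.14 to 0.18 with 1 library left out, nor in limma, at 0.11 on log2(FPKM + 0.1) and 0.07 on log2(TPM + 0.1). Ptpn2, a phosphatase that acts on JAK and STAT proteins, was 21.2 ± 0.921 and 25.2 ± 2.19 CPM (0.25, adjusted p = 0.0151), but its sign turned to -0.04 in limma on FPKM and -0.08 on TPM. The call of Ptpn2 was also lost without Con replicate 2 or EX replicate 1, over a range of 0.18 to 0.31, and in DESeq2. The length behind the authors' TPM of Ptpn2 varied 1.32 times over the libraries and was 1.18 times as long in EX, so the FPKM and TPM values of this gene are uncertain.

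Of 14 cytokine receptors that use JAK kinases and passed the filter, 3 fell and 11 did not pass (median -0.08). Il6st, the shared signalling chain of the interleukin-6 family, was 243, 251 and 244 CPM in Con and 223, 222 and 223 CPM in EX, with no overlap (-0.15 ± 0.04 SE, adjusted p = 0.00506). Il15ra, the interleukin-15 receptor chain, was 34.1 ± 0.670 and 27.9 ± 2.11 CPM (-0.29, adjusted p = 0.00163). Both were called in every fit. Osmr, the oncostatin M receptor, was 19.4 ± 2.15 and 16.5 ± 0.402 CPM (-0.23, adjusted p = 0.0483), and its call was kept only without Con replicate 3 among the 6 libraries left out in turn, over a range of -0.30 to -0.15. Osmr was lost in DESeq2 as well. Prlr, the prolactin receptor, had between 0 and 3 counts in a library, which is not above the floor, with means of 0.0655 CPM in Con and 0.0628 CPM in EX, and is named although its values were seen first.

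Of the cytokine ligands, 5 of 21 listed passed the filter, 1 fell and 4 did not pass (median -0.05). Csf1, the macrophage growth factor, whose own receptor is a tyrosine kinase and not a JAK partner, was 20.9 ± 0.734 CPM in Con and 17.6 ± 1.29 CPM in EX (-0.25, adjusted p = 0.0183). Leaving out Con replicate 3 ended its call, as did leaving out EX replicate 1 or 2, over a range of -0.31 to -0.21, and so did DESeq2. Of the 21 listed ligands, 13 had values in the deposited table. Growth hormone and prolactin, listed as Gh and Prl, were not among them, so their transcripts could not be described.

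The list of STAT5 and growth hormone target genes had 18 genes tested, of which 6 rose, 5 fell and 7 did not pass (median -0.01). Igf1, the growth factor that growth hormone induces, was 26.4, 28.7 and 29.4 CPM in Con and 37.9, 32.5 and 34.2 CPM in EX. All EX mice lay above all Con mice (0.30 ± 0.07 SE, adjusted p = 0.00136), a direction opposite to that of Cish and Socs2. Pim1 and Pim3 encode related survival kinases and moved in opposite directions. Pim1 was 23.4 ± 0.710 and 28.3 ± 1.51 CPM (0.28, adjusted p = 0.00321), and Pim3 was 41.2 ± 1.05 and 29.5 ± 2.85 CPM (-0.48, adjusted p = 2.06e-06). The calls of Igf1 and Pim1 held with any 1 library left out, but not in limma on log2(FPKM + 0.1) or log2(TPM + 0.1), where Igf1 was 0.25 and 0.22 and Pim1 was 0.04 and 0.00. For Pim1 the length behind the TPM was 1.13 times as long in EX as in Con, which makes its FPKM and TPM values uncertain too. Pim3 was called in every fit.

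Of the other genes of that list, Bcl2l1, a survival factor, was 27.6 ± 1.82 and 22.6 ± 1.07 CPM (-0.29, adjusted p = 0.00317) and was called in every fit. Ccnd2, cyclin D2, was 23.1 ± 0.435 and 18.9 ± 1.74 CPM (-0.28, adjusted p = 0.00649), and it did not pass without EX replicate 3, over a range of -0.36 to -0.23. Myc, a growth-promoting transcription factor, was 7.94 ± 0.647 and 10.2 ± 0.850 CPM (0.36, adjusted p = 0.0212). The call of Myc was lost without Con replicate 1 or 3 or EX replicate 1 or 2, over a range of 0.31 to 0.42, and also in DESeq2 and limma.

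Of 17 STAT3 and interleukin-6 target genes tested, 2 rose, 4 fell and 11 did not pass (median 0.03). Tnfrsf12a, the receptor of the cytokine TWEAK, was 18.9, 17.7 and 16.7 CPM in Con and 9.08, 9.87 and 9.46 CPM in EX (-0.91 ± 0.09 SE, adjusted p = 1.27e-08), a change nearly as large as that of Cish. Junb, an immediate early transcription factor, was 16.9 ± 1.2 and 12.3 ± 0.348 CPM (-0.46, adjusted p = 2.27e-04). Zfp36, which encodes a protein that destabilises messenger RNA, was 21.9 ± 0.654 and 16.5 ± 1.74 CPM (-0.42, adjusted p = 2.88e-04). In the other direction, Hp, haptoglobin, was 3.27 ± 0.360 and 5.31 ± 0.498 CPM (0.69, adjusted p = 0.00165), and Nfil3, a transcriptional repressor that also belongs to the clock list, was 19.3 ± 1.47 and 26.9 ± 0.798 CPM (0.48, adjusted p = 1.07e-05). These 5 were called in every fit in which they were tested.

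Of 12 BCL6 corepressors and partners tested, 2 rose, 1 fell and 9 did not pass (median 0.03). Zbtb16, a related zinc finger repressor that is also a glucocorticoid-induced gene, was 124 ± 7.21 and 148 ± 0.342 CPM (0.25, adjusted p = 1.23e-04) and was lost only in limma on log2(TPM + 0.1), at 0.16. Bcl6b, the closest relative of Bcl6, was 24.0 ± 1.06 and 28.3 ± 2.0 CPM (0.24, adjusted p = 0.0145), and Bcor, the corepressor named for BCL6, was 44.4 ± 0.966 and 39.8 ± 1.65 CPM (-0.16, adjusted p = 0.0414). Bcl6b was lost without EX replicate 1 or 3 (0.19 to 0.29), in DESeq2 and in limma, and Bcor without Con replicate 2 or 3 or EX replicate 1 or 2 (-0.19 to -0.13), with no filter, in DESeq2, with the replicate block and in limma on FPKM.

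**Figure D5:**
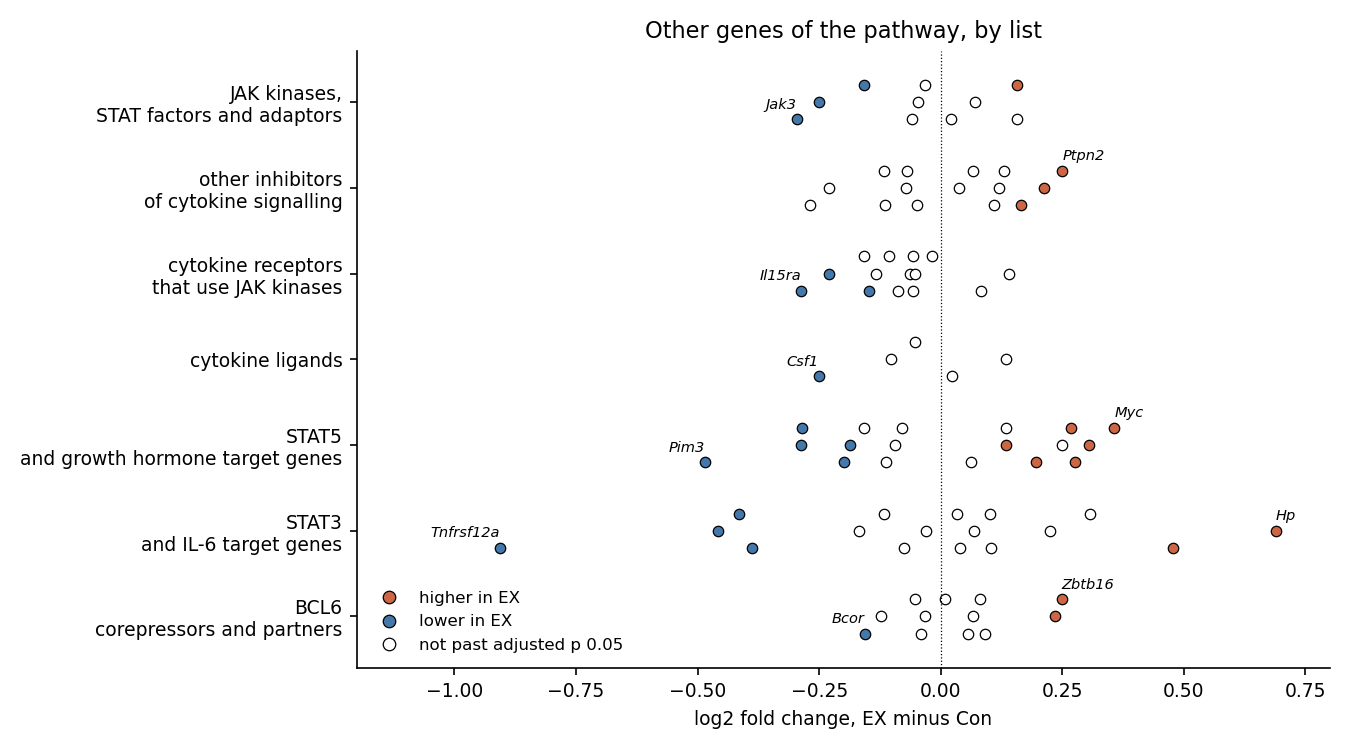
Log2 fold change of EX against Con (horizontal axis) for the 91 other pathway genes tested, in rows by list, with filled red points for the 14 that rose, filled blue points for the 17 that fell and open points for the 60 that did not pass an adjusted p of 0.05. The called genes with the lowest and highest value of each list are named where they lie at its end, with Tnfrsf12a at -0.91 and Hp at 0.69.

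Genes of daily rhythm and of stress hormone signalling also differed between the groups, in both directions. Of the clock genes tested 50% were called and of the glucocorticoid-induced genes 55.6%, beside 17.9% of all genes tested (9.11% higher and 8.8% lower). Of 18 core clock and clock output genes tested, 2 rose and 7 fell, and the list summed to 2082 to 2140 CPM in Con and 1840.2 to 1865 CPM in EX. Nr1d1, a clock repressor, was 349 ± 33.3 CPM in Con and 194 ± 7.84 CPM in EX (-0.85, adjusted p = 3.96e-13). Of 18 glucocorticoid-induced genes tested, 5 rose and 5 fell, and the sums were 3185 to 3243 CPM in Con and 3065 to 3088 CPM in EX. Tsc22d3, a classical glucocorticoid target, was 223 ± 5.82 and 344 ± 4.78 CPM (0.63, adjusted p = 4.45e-13), while Trim63, a ubiquitin ligase of muscle wasting, was 479.5 ± 16.5 and 390 ± 17.7 CPM (-0.30, adjusted p = 1.6e-06). The part of clock phase or of glucocorticoids in the values of Cish and Socs2 was not tested.

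Markers of cell and fibre types differed between the groups too, and none of those with a value in the table was at 0 in all 6 libraries. The counts below stand beside 9.11% of all genes tested called higher in EX and 8.8% called lower. All 8 slow muscle fibre markers rose, and their sum went from 141 to 148 CPM in Con to 412 to 442 CPM in EX. Among macrophage markers 6 of 7 rose (sums 45.5 to 49.8 and 81.2 to 87.5 CPM). Among fat cell markers 5 of 8 rose (297 to 317 and 341 to 349 CPM), with a median log2 fold change of 1.03. Among fibroblast and tendon markers 5 of 9 rose (987 to 1010.1 and 1344 to 1353 CPM). Of satellite cell and regenerating fibre markers 3 of 6 rose, with sums of 554 to 613 and 1645 to 1746 CPM, most of it Actc1, the cardiac actin gene (511 ± 31.8 and 1603 ± 50.0 CPM), while the median log2 fold change of the 6 was 0.32. In endothelium 6 of 10 fell and 1 rose (927 to 944 and 809.97 to 827 CPM), and of the 10 muscle fibre markers 3 rose and 3 fell. All 7 liver genes tested fell, from 112 to 113 CPM in Con to 60.7 to 67.0 CPM in EX (the list includes Fgb, which encodes the partner chain of the Fga product). Lymphocyte markers summed to 0.751 to 1.49 CPM in Con and 0.506 to 0.634 CPM in EX, and neutrophil markers to 0.190 to 0.498 and 0.0634 to 0.253 CPM. The part of these lists in the values of the 10 genes was not tested.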

How the data were processed

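Hind leg muscle RNA of 3 Con and 3 EX mice was sequenced by the authors (TRIzol extraction, DNBseq, paired-end reads), 1 library per mouse. The paper's methods name HISAT and GRCm39, while the submitters' processing notes list GRCm38.p6, cutadapt, MultiQC and featureCounts. The table holds no positions, and how the estimated counts were made is not given in the sources used here. The authors deposited estimated counts per gene and library, not normalized, and FPKM and TPM values, their normalization of these counts by length and depth. Between 4.18% and 4.44% of the count values in a library were not whole. Replicates were not pooled, and 6 columns of group means were not used.

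Estimated counts were rounded, scaled by TMM and tested with edgeR 4.0.16 (glmQLFit, glmQLFTest) in R 4.3.3 on the 10883 of 16759 genes that averaged 1 FPKM or more. Calls were an adjusted p under 0.05 (Benjamini-Hochberg over all genes tested), with no fold limit. The common biological coefficient of variation was 0.0328. Scripts were tested on simulated data. The alternatives, 16 in all, were no filter, a 5 FPKM filter, median ratios, totals without the 20 most abundant genes, DESeq2 1.42.0, limma 3.58.1 on log2(FPKM + 0.1), log2(FPKM + 1) and log2(TPM + 0.1), whose fold changes are on that scale, where the pseudocount draws low values together, a block for the replicate number, fits that each left out 1 library, and, added after seeing the data, Stat5a and Stat5b summed.

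The members and the 19 gene lists (7 pathway, 2 context, 10 marker) were chosen with earlier results of these data known. Named genes were the members, up to 3 largest increases and 3 largest decreases among the calls of a list, and the 5 genes closest to Cish in pattern. Fewer were named from the context and marker lists. Where 1 library left an arm with 2 mice, the spread was pooled over both groups. Intervals are 95%, and the limit of 3 counts covers counting error only. No batch is named in the labels or the paper.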

Additional observations from a re-analysis of the deposited data

How the results depend on the processing

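Across 16 alternatives, 174 of 203 values kept their direction and their side of the threshold or, for counts, stayed within 1.5 times, while 8 changed sign, 10 passed the threshold only under the alternative, 5 lost it and 6 counts moved further. Over the fits, Cish was between -1.15 and -1.04, Socs2 between -0.81 and -0.64 and Stat5b between -0.31 and -0.21. Ghr and Bcl6 changed sign around 0, to -0.0495 and -0.0319 in limma on log2(FPKM + 0.1), -0.0486 and -0.0312 on log2(FPKM + 1), and -0.0848 and -0.0675 on log2(TPM + 0.1). With 1 library left out they ranged from -0.00296 to 0.0485 and from -0.00108 to 0.0572, the lowest without EX replicate 1. Socs1 was called lower in 5 of 16 fits and Stat5a in 4 of 15. Members called numbered 3 to 6 over all fits. All called genes were 1949 in the edgeR test, 1228 in DESeq2 and 1344 to 1857 with 1 library left out. Pathway genes called were 31, and 16 in DESeq2, 16 in limma on log2(FPKM + 0.1), 16 on log2(FPKM + 1) and 18 to 27 with 1 library left out. The split of calls was 991 higher and 958 lower, 994 and 954 with median ratios, 768 and 1269 with totals without the 20 most abundant genes, and, with the test and unit changed as well, 411 and 1037 in limma on log2(FPKM + 0.1), 411 and 1032 on log2(FPKM + 1) and 340 and 1684 on TPM. The median of all genes was -0.00, -0.00, -0.03, -0.06, -0.05 and -0.09 in these fits. The TMM factors were 1.01 to 1.03 in Con and 0.971 to 0.988 in EX, and the limma fits were made without them. The part of this scaling in the shift was not tested.

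Same-numbered Con and EX libraries did not deviate together (correlations -0.08, -0.05 and -0.03), and pairs with different numbers lay between -0.03 and 0.08. With 3 libraries per group these values cannot show whether libraries shared a batch. With a replicate block, 1782 genes, 4 members and 25 pathway genes were called.

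Depth limits Socs1 (22 to 50 reads) and Socs3 (96 to 136 reads) most.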
